A study of Rattus norvegicus with 22 samples.

Results

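Haemoglobin and erythroid genes were followed by name in raw read counts: Hba-a2, Hbb, Hbb-b1, Alas2, Slc4a1 and Ahsp. A row was kept when the gene symbol in its name equalled one of these symbols. Of 32883 rows, 6 matched, and they carried 5 of the 6 symbols: Hba-a2 had a first row (ENSRNOG00000029886) and a second row (ENSRNOG00000047321), and Hbb, Alas2, Slc4a1 and Ahsp had 1 row each. No row matched Hbb-b1.

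The counts came from the ventral cervical spinal cord (segments C3 to C6) of 22 young adult Sprague-Dawley rats aged 3 to 4 months, with a separate library for each rat. There were 5 intact males, 5 males whose testes had been removed (GDX), 6 intact females and 6 females whose ovaries had been removed (OVX), each operation 2 weeks before the tissue was taken, and the females were virgin. No sham operation was described for the intact rats, so loss of the gonads and surgery cannot be told apart. All 11 libraries of gonadectomized rats were of the short fragment class, whereas 7 of the 11 intact libraries (males 1, 3 and 6, females 2, 3, 5 and 6) were of the long class.

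Haemoglobin joins alpha and beta globin chains, each holding a haem group that binds oxygen. Maturing red cells make globin and haem in step, and young red cells in the blood still carry globin messenger RNA. Globin transcripts have also been described in neurons and glia, so a globin read from spinal cord does not by itself name its cell of origin. The rats had been flushed with cold saline through the heart before the cord was taken, a step that removes blood, and how complete this was in each rat was not stated.

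Hba-a2 encodes alpha globin, and Hbb and Hbb-b1 encode beta globin chains. Alas2, on the X chromosome, encodes the erythroid form of the enzyme that starts haem synthesis. Slc4a1 encodes band 3, the anion exchanger of the red cell membrane, and Ahsp encodes the chaperone that holds free alpha globin. Because Hba-a2 and Hbb moved together from rat to rat, the 110 bases before the start of 4 globin genes are shown, from RefSeq on build GRCr8, all read from the - strand: Hba-a2 at chr10:15829139-15829248, Hbb at chr1:167663722-167663831, Hbb-bs at chr1:167631631-167631740 and Hbb-b1 at chr1:167643521-167643630. Capitals mark the CCAAT box, the CACCC box and the TATA-like motif ATAAA, all searched on both strands, and in Hbb the CCAAT matches of the 2 strands lie end to end.
Hba-a2: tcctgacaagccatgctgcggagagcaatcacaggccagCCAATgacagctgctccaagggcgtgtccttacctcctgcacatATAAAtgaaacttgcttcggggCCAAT
Hbb: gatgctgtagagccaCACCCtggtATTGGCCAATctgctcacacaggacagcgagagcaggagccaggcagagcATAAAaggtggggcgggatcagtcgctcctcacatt
Hbb-bs: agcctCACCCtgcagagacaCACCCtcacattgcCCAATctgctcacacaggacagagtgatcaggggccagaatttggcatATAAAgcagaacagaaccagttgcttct
Hbb-b1: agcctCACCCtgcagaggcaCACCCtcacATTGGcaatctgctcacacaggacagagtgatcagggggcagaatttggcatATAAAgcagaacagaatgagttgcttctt

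All 4 windows held the CCAAT box and the TATA-like motif, and all but Hba-a2 held the CACCC box. Among 33469 promoters of the same length, 18.5 percent held the first of these motifs, 19.9 percent the TATA-like motif and 27.6 percent the CACCC box. The GATA motif AGATAA, searched on both strands and present in 4.11 percent of promoters, was in none of the 4. These matches describe letters only, and their part in the co-variation of Hba-a2 and Hbb was not tested. Of the 6 member symbols 4 had an entry in the promoter table, but these are not the 4 windows shown. Hbb-bs is not a member, and no window is shown for Alas2, Slc4a1 or Ahsp. Hbb-b1 and Hbb-bs shared 30 of 31 words of 20 bases in their first 50 transcribed bases, while Hbb shared 0 of 31 with either. Hba-a2 shared 16 of 31 with Hba-a1 and 25 of 31 with Hba-a3. How reads that fit several globin genes were counted was not stated, so each globin row may hold reads of its close relatives.

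In males, the globin rows and Slc4a1 averaged higher after gonadectomy, with a wide spread among GDX rats. The first Hba-a2 row averaged 6.55 ± 3.06 CPM (reads as CPM of the TMM-scaled library, mean ± SD, n = 5) in intact males and 21.6 ± 14.5 CPM in GDX males, and the second averaged 4.91 ± 1.51 and 16.1 ± 11.5 CPM. Hbb averaged 1.76 ± 0.796 CPM in intact males and 4.81 ± 3.55 CPM in GDX males. Slc4a1 averaged 0.642 ± 0.530 and 2.30 ± 1.86 CPM.

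The first Hba-a2 row stood at 11.3, 7.70, 3.85, 4.08 and 5.84 CPM in intact males 1, 2, 3, 5 and 6, and at 9.02, 10.04, 43.8, 17.0 and 28.0 CPM in GDX males 1, 2, 4, 5 and 6. GDX males 4, 5 and 6 lay above every intact male, and GDX males 1 and 2 lay within the intact range. The second Hba-a2 row, in the same order of rats, stood at 6.80, 6.14, 3.25, 4.51 and 3.87 CPM in intact males and at 6.24, 9.06, 34.6, 10.7 and 19.9 CPM in GDX males. Here GDX male 1 alone overlapped the intact rats. Hbb, a beta globin, stood at 3.12, 1.63, 1.66, 1.36 and 1.05 CPM in intact males and at 1.86, 2.02, 10.6, 4.26 and 5.34 CPM in GDX males. Slc4a1 stood at 1.35, 0.592, 0.227, 0.0618 and 0.984 CPM in intact males and at 1.06, 0.519, 5.33, 2.20 and 2.41 CPM in GDX males. For both genes, GDX males 4, 5 and 6 were above every intact male and GDX males 1 and 2 were not. GDX male 4 was the highest of the 10 males in every member row.

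**Figure D1:**
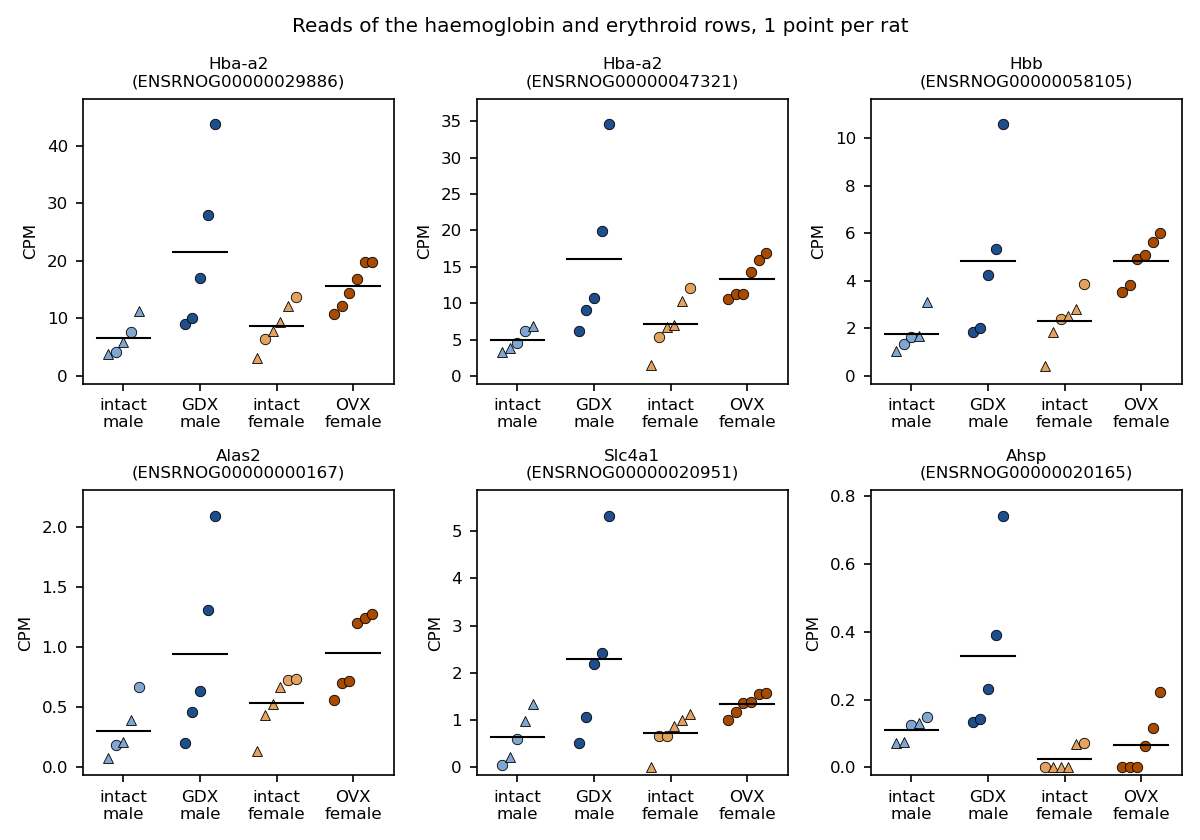
CPM (TMM-scaled) of each member row in each of 22 rats, by group; circles are libraries of the short fragment class, triangles those of the long class, and lines are group means. GDX male 4 is the highest male point in each panel, at 43.8 CPM in the first Hba-a2 row, and the OVX females spread less than the GDX males.

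By edgeR over 14931 genes, the log2 fold change of GDX over intact males was 1.72 (SE 0.408, adjusted p = 0.0193) for the first Hba-a2 row and 1.71 (SE 0.392, adjusted p = 0.0167) for the second, with 3 and 4 of 5 GDX males above all intact males. Hbb gave 1.45 (SE 0.438, adjusted p = 0.0544) and Slc4a1 gave 1.83 (SE 0.616, adjusted p = 0.0825), each with 3 of 5 GDX males above all intact males. Of the 6 member rows 4 could be tested and these 4 were called higher at an adjusted p under 0.1, where 6.78 percent of all genes tested were called higher. Slc4a1 reached 0.667 CPM, the level of the filter on low counts, in 4 GDX but only 2 intact males, so the count over tested rows is no measure over the members. The members were also chosen with earlier results of these data known, which the share over all genes does not allow for. The groups of 0 of these 4 rows were free of overlap, where 3.53 percent of genes tested had every GDX male above every intact male. In bulk tissue, more cells of a type and more RNA per cell cannot be told apart.

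The Hba-a2 calls held without any single male, at adjusted p of up to 0.0504 for the first row and 0.0410 for the second, both without intact male 5. The Hbb call was lost without intact male 2 (log2 1.42, adjusted p = 0.107), 5 (1.36, 0.114) or 6 (1.30, 0.115), or GDX male 4 (0.93, 0.159) or 6 (1.41, 0.102). The Slc4a1 call was lost without intact male 2 (log2 1.80, adjusted p = 0.148), 3 (1.63, 0.148) or 5 (1.51, 0.153), or GDX male 4 (1.25, 0.241), 5 (1.84, 0.137) or 6 (1.81, 0.134), and also in DESeq2 (1.85, 0.129) and in edgeR with RNA integrity as a term (1.94, 0.116). Counts of called member rows fell from 4 to 2 without intact male 2 or 5 or GDX male 4 or 6, and calls over all genes fell from 1995 to 1480, 1573, 1517 and 1545 in these fits.

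Within the short fragment class, intact males 2 and 5 averaged 5.89 CPM in the first Hba-a2 row, 5.33 CPM in the second, 1.49 CPM in Hbb and 0.327 CPM in Slc4a1. The log2 changes against these 2 rats were 1.89, 1.60, 1.69 and 2.86, and 0 of the 4 rows were called by edgeR (adjusted p from 0.143 to 0.199), with 440 of 15553 genes called in either direction against 1995 of 14931 among all males. With fragment class as a term, the change rested on the same 2 intact males, since no GDX library was of the long class. It is thus no separate check. The log2 changes were then 1.89, 1.60, 1.68 and 2.86, and 0 were called (edgeR adjusted p from 0.109 to 0.169), with 796 of 14931 genes called.

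Alas2 and Ahsp fell below the filter in males and were fitted without it. Alas2, the erythroid haem enzyme, stood at 0.213, 0.666, 0.0755, 0.185 and 0.394 CPM in intact males and at 0.199, 0.462, 2.09, 0.638 and 1.30 CPM in GDX males. GDX males 4 and 6 were above every intact male, and the log2 difference was 1.58 (SE 0.577, edgeR adjusted p = 0.135; DESeq2 1.62, adjusted p = 0.0978; edgeR with fragment class 1.15, adjusted p = 0.530). Ahsp had 1, 2, 1, 2 and 2 reads in intact males and 2, 4, 11, 2 and 6 in GDX males. The intact counts were all under the floor of 3 reads, so no fold is given, and the edgeR adjusted p was 0.220.

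In females, the same rows averaged higher after ovariectomy without passing the edgeR test. The first Hba-a2 row averaged 8.76 ± 3.90 CPM (n = 6) in intact and 15.6 ± 3.83 CPM in OVX females, and the second 7.18 ± 3.74 and 13.3 ± 2.69 CPM. Hbb averaged 2.32 ± 1.15 and 4.83 ± 0.984 CPM, Alas2 0.538 ± 0.228 and 0.947 ± 0.321 CPM, and Slc4a1 0.723 ± 0.3996 and 1.35 ± 0.217 CPM.

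The lowest, median and highest values of the first Hba-a2 row were 3.04, 8.64 and 13.8 CPM in intact females and 10.8, 15.6 and 19.9 CPM in OVX females. For the second Hba-a2 row they were 1.52, 6.85 and 12.2 CPM in intact and 10.6, 12.8 and 16.8 CPM in OVX females. For Hbb they were 0.415, 2.47 and 3.88 CPM in intact and 3.53, 4.99 and 6.01 CPM in OVX females. Intact female 2 was the lowest and intact female 1 the highest intact rat in these 3 globin rows, and the groups overlapped in each. Alas2 ran from 0.138 through 0.598 to 0.731 CPM in intact and from 0.557 through 0.958 to 1.27 CPM in OVX females. Slc4a1 ran from 0 through 0.773 to 1.13 CPM in intact and from 1.01 through 1.38 to 1.57 CPM in OVX females. For Slc4a1, OVX female 6 alone lay within the intact range, and intact female 2 had no read. Ahsp had 2 reads over the 6 intact and 7 over the 6 OVX females, with 4 and 3 rats at 0, so no fold is given.

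By edgeR over 14910 genes, the log2 fold change of OVX over intact females was 0.84 (SE 0.247, adjusted p = 0.255) for the first Hba-a2 row, 0.90 (SE 0.282, adjusted p = 0.282) for the second and 1.05 (SE 0.294, adjusted p = 0.236) for Hbb. Alas2 gave 0.81 (SE 0.332, adjusted p = 0.420) and Slc4a1 0.90 (SE 0.375, adjusted p = 0.426). In that order of rows, 4, 3, 4, 3 and 5 of the 6 OVX females were above all intact females. Of 5 rows tested, edgeR called 0 at an adjusted p under 0.1, where it called 0.0335 percent of all genes in either direction. At an unadjusted p under 0.05 the count was 5, with 5.25 percent of all genes higher at that level, and DESeq2 called 1 (Hbb, log2 1.06, adjusted p = 0.0361) and 174 of all 14910 genes. Alas2 reached the level of the filter, 0.683 CPM, in 5 OVX but only 2 intact females, so here too the count over tested rows is no measure over the members. Of the 5 rows, 0 had groups free of overlap, where 0.302 percent of genes had every OVX female above every intact one.

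Without intact female 1 edgeR called 2 member rows, the first Hba-a2 row (log2 1.03, adjusted p = 0.0937) and Hbb (1.28, 0.0828), while its calls over all genes rose from 5 of 14910 to 113 of 14997. Intact females 1 and 4 were the only intact females of the short class, and against these 2 the log2 differences were 0.62, 0.59 and 0.60 for the globin rows, 0.38 for Alas2 and 1.01 for Slc4a1 (edgeR adjusted p from 0.681 to 0.923). With fragment class as a term, the differences rested on the same 2 intact females, since no OVX library was of the long class. They were then 0.63, 0.59, 0.61, 0.38 and 1.01 (edgeR adjusted p from 0.748 to 0.892).

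**Figure D2:**
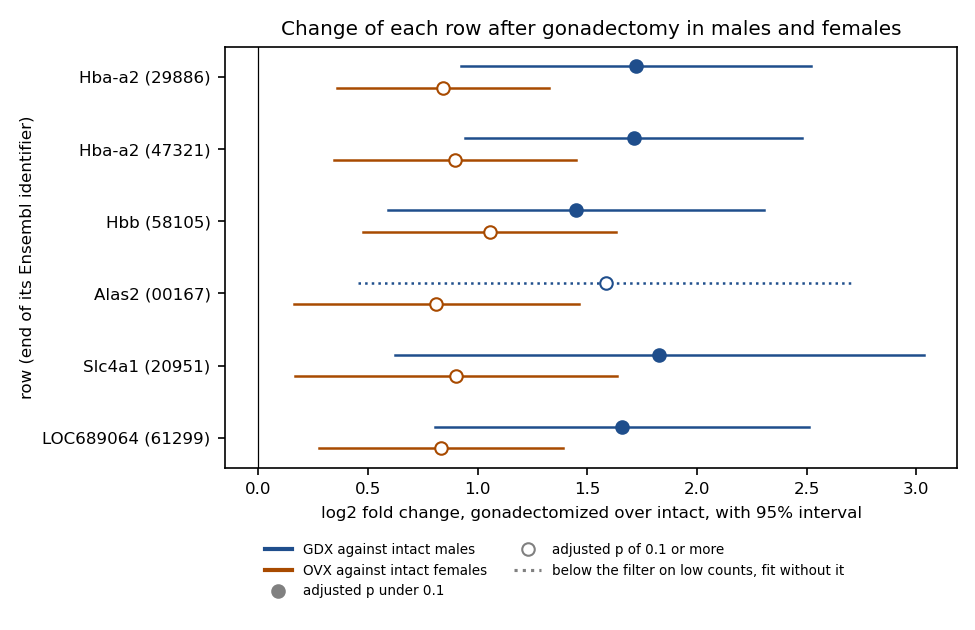
Log2 fold change by edgeR of each member row other than Ahsp, and of LOC689064, after gonadectomy in males (blue) and females (brown). Lines are normal 95% intervals with an SE derived from the test statistic. Filled points have an adjusted p under 0.1 and dotted lines mark a fit without the filter. Each point lies above 0, from 0.81 for Alas2 in females to 1.83 for Slc4a1 in males.

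The difference between the male and the female response was tested itself, over all 22 rats. The interaction was 0.88 (SE 0.518, adjusted p = 0.520) and 0.82 (SE 0.530, adjusted p = 0.580) on the log2 scale for the Hba-a2 rows, 0.40 (SE 0.566, adjusted p = 0.843) for Hbb, 0.78 (SE 0.704, adjusted p = 0.722) for Alas2 and 0.93 (SE 0.785, adjusted p = 0.695) for Slc4a1. Of 5 rows tested, edgeR called 0, 0 had an unadjusted p under 0.05 and DESeq2 called 0, where edgeR called 0.116 percent of all genes. A larger response of these genes in males than in females was thus not shown. Without GDX male 4 the interactions were 0.45 and 0.33 for the Hba-a2 rows, -0.12 for Hbb, 0.26 for Alas2 and 0.36 for Slc4a1.

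Sex alone did not pass the test in these rows. Intact males were lower than intact females by a log2 difference of -0.43 (edgeR adjusted p = 0.586) and -0.55 (adjusted p = 0.496) in the Hba-a2 rows, -0.40 (adjusted p = 0.677) in Hbb and -0.17 (adjusted p = 0.932) in Slc4a1. Of 4 rows tested, edgeR called 0, 0 had an unadjusted p under 0.05 and DESeq2 called 0, with 4.01 percent of all genes called by edgeR. The X-linked Alas2, fitted without the filter, gave -0.80 (SE 0.507, adjusted p = 0.570). Ahsp went the other way, with 4 of 5 intact males above all intact females, but each of these rats had under 3 reads, so no fold is given (fitted without the filter, edgeR unadjusted p = 0.0379, adjusted p = 0.386). Slc4a1 turned to 0.03 without intact male 3 and to 0.14 without intact male 5.

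GDX males and OVX females, whose libraries were all of the short class, differed by 0.45 (edgeR adjusted p = 0.711) and 0.26 (adjusted p = 0.849) in the Hba-a2 rows, -0.01 (adjusted p = 0.996) in Hbb, -0.03 (adjusted p = 0.993) in Alas2 and 0.76 (adjusted p = 0.593) in Slc4a1, as log2 of males over females. Of 5 rows tested, edgeR called 0, 0 had an unadjusted p under 0.05 and DESeq2 called 0, with 0.232 percent of all genes called by edgeR. Ahsp, below the filter, was higher in 3 of 5 GDX males than in all OVX females (fitted without the filter, edgeR unadjusted p = 0.0134, adjusted p = 0.474). Without GDX male 4 the first Hba-a2 row fell to 0.02 and Slc4a1 to 0.18, and the second Hba-a2 row turned to -0.23. The values of Hbb and Alas2, near 0, changed sign without each of several rats.

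Ordered by mean, the first Hba-a2 row ran from intact males through intact females and OVX females to GDX males, and so did the second. In both rows the 2 intact groups differed by less than the larger of their SDs, as did the 2 gonadectomized groups. The step from intact to OVX females exceeded the SD of either group. Hbb had the same 2 lower groups, and its means in GDX males and OVX females, 4.81 and 4.83 CPM, lay side by side.

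Proportions between the members were compared as shares of reads. Hbb took 13.5 ± 3.68 percent of the reads of Hbb and both Hba-a2 rows in intact males, 11.1 ± 1.50 percent in GDX males, 12.4 ± 3.18 percent in intact females and 14.5 ± 2.96 percent in OVX females. The first row took 56.0, 57.5, 56.5 and 53.7 percent of the Hba-a2 reads in these groups. Slc4a1 made up 4.81, 5.53, 4.02 and 4.59 percent of its reads together with Hba-a2, and Alas2 2.56, 2.23, 3.47 and 3.18 percent. In 8 two-sided exact permutation tests of gonadectomized against intact rats, each adjusted p was 0.698, and the lowest unadjusted exact p was 0.214, for Hbb in males. Each difference was smaller than the larger SD of the groups compared.

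From rat to rat, the members rose and fell together apart from Ahsp. On the log2 CPM scale, with both Hba-a2 rows summed, Hba-a2 and Hbb had Pearson r = 0.934 and Spearman rho = 0.929 over 22 rats (permutation p = 1e-05 for both, the smallest that 100000 permutations can give; adjusted p = 3.33e-05 and 5e-05 over 10 pairs). Hba-a2 also went with Slc4a1 (r = 0.875, permutation p = 1e-05; rho = 0.832, permutation p = 1e-05) and with Alas2 (r = 0.843, permutation p = 2e-05; rho = 0.780, permutation p = 4e-05). The other pairs among Hbb, Alas2 and Slc4a1 had r from 0.744 to 0.826. In all, 6 of 10 pairs had an adjusted p under 0.05 for r, and the 4 pairs with Ahsp did not (r from 0.241 to 0.382). Without the 2 rats farthest from the median, for Hba-a2 GDX male 4 and intact female 2, r was 0.883 for Hba-a2 and Hbb, and at least 0.643 for each of the 6 pairs.

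These relations were not only those of the group means. After each group's mean was taken out, r for Hba-a2 and Hbb was 0.904 (permutation adjusted p = 2.00e-04), and the same 6 pairs had r from 0.666 to 0.904. Within the 15 libraries of the short class they ran from 0.742 to 0.920. Both settings kept 6 pairs at an adjusted p under 0.05. Without the 2 farthest rats the lowest r of these pairs was 0.455 with the group means taken out and 0.409 in the short class.

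**Figure D3:**
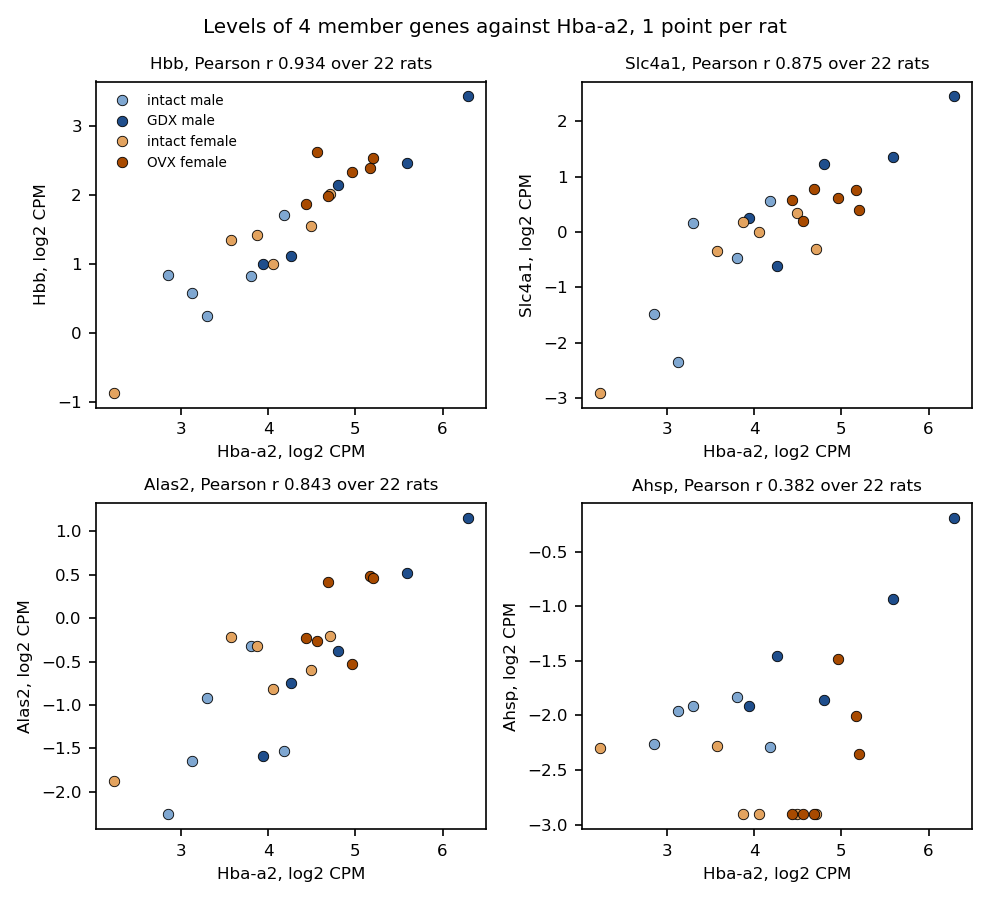
Log2 CPM (TMM, prior count 2) of Hbb, Slc4a1, Alas2 and Ahsp, each on its own vertical axis, against log2 CPM of Hba-a2 on the horizontal axis, 1 point per rat and coloured by group. Hbb follows Hba-a2 with r = 0.934; Ahsp, with no read in 7 rats, has r = 0.382.

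Genes outside the members were ranked by Pearson r with the mean log2 CPM of the 5 member rows that passed the filter, over 22 rats and 15557 genes, as a description without a test. The closest was LOC689064 (r = 0.958), which RefSeq lists as the beta globin Hbb-bs. RatNP-3b (0.899), a neutrophil defensin, S100a9 (0.860), a calcium-binding protein of neutrophils, and Prg2 (0.839), a protein of eosinophil granules, came next. Ighm (0.828), the heavy chain of immunoglobulin M, Zic1 (0.819), a transcription factor, Maob (0.789), Anxa1 (0.773), Efnb1 (0.772) and the collagen gene Col1a1 (0.769) followed. Lowest were Kctd3 (-0.832), Inpp5j (-0.829), Gbf1 (-0.775), Clec2l (-0.773) and Dclk2 (-0.772). The median over all genes was 0.00558. Without GDX male 4 and intact female 2, RatNP-3b had r = 0.822, S100a9 0.827 and Kctd3 -0.659.

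Among other globin genes, LOC689064 alone passed the filter in males. It stood at 1.63, 2.15, 1.06, 0.804 and 1.12 CPM in intact males and at 1.92, 1.90, 8.09, 2.48 and 6.84 CPM in GDX males. GDX males 4, 5 and 6 lay above every intact male, and the log2 change was 1.66 (SE 0.435, edgeR adjusted p = 0.0298). Against the 2 intact males of the short class it was 1.55 and the call was lost. In OVX females it was 0.83 (SE 0.284, adjusted p = 0.312), with 4 of 6 above all intact females. Hba-a3, LOC100134871 (Hbbl1 in RefSeq) and LOC103694855 had group means under 1 CPM. Hbq1a had 1 read in GDX males and 1 in OVX females, Hbe1 had 1 read in OVX females, and Hbz, Hbe2 and Hbg1 had none. The 9 globin rows with reads summed to 23.8, 18.2, 10.1, 10.9 and 12.004 CPM in intact males and 19.4, 23.9, 100.1, 35.1 and 62.0 CPM in GDX males. In females the sum ran from 6.08 through 20.8 to 34.5 CPM when intact and from 28.4 through 38.4 to 48.4 CPM after OVX. GDX males 1 and 2 thus stood near the highest intact male, and the others above it.

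In males the median log2 change of each other erythroid list lay between -0.14 and 0.08, beside 0.00 over all genes. These medians cover only genes that passed the filter. In males these were 11 of 18 membrane rows with Slc4a1, 7 of 12 factor and receptor rows and 12 of 18 red cell enzyme rows. Genes with few reads, Alas2 and Ahsp among them, are thus not in these medians. Over all genes tested in males, 1012 of 14931 were called higher and 983 lower. Of 13 haem synthesis genes tested, 1 was called higher and 1 lower by edgeR (median 0.01): Cpox, coproporphyrinogen oxidase, at 0.22 (SE 0.0552, adjusted p = 0.0234) and Alas1, the housekeeping counterpart of Alas2, at -0.20 (SE 0.0641, adjusted p = 0.0715). Of 10 genes of the erythroid membrane and skeleton besides Slc4a1, 2 were higher and 4 lower (median -0.14). Bcam (0.49, adjusted p = 0.00951) and Gypc (0.90, adjusted p = 0.0618) rose, while Dmtn (-0.31, adjusted p = 0.00678), Add2 (-0.29, adjusted p = 0.00989), Ank1 (-0.31, adjusted p = 0.0211) and Sptb (-0.18, adjusted p = 0.0396) fell. Sptb, a spectrin, and Ank1, an ankyrin, were also the most abundant of this list, at 192 and 184 CPM over all rats.

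Of 7 erythroid transcription factors and receptors tested, 1 was higher and 0 lower (median 0.08), the transferrin receptor Tfrc at 0.16 (SE 0.0522, adjusted p = 0.0774). Tfrc and Ldb1, the most abundant of this list, averaged 125 and 41.9 CPM. Gata1 had 1 read in 1 OVX female, and Klf1, Epor and Nfe2 averaged under 0.3 CPM in each group. Of 12 red cell enzymes and late maturation genes other than Ahsp, 1 was higher, Tent5c at 0.63 (adjusted p = 0.0671), and 3 were lower, Ypel4 at -0.32 (adjusted p = 0.0265), Ube2o at -0.25 (adjusted p = 0.0589) and Prdx2 at -0.14 (adjusted p = 0.0831), with a median of -0.03. Of 13 genes of haemoglobin scavenging, iron and tissue globins, 2 were higher, ferroportin Slc40a1 at 0.55 (adjusted p = 0.0950) and ferritin Fth1 at 0.21 (adjusted p = 0.0669), and 1 was lower, cytoglobin Cygb at -0.46 (adjusted p = 0.0231), with a median of 0.07. Fth1 and the transferrin gene Tf, the most abundant of that list, averaged 2922 and 2058 CPM, and Tf changed by -0.04 (adjusted p = 0.704). Against the 2 intact males of the short class, most of the calls in these 5 lists were lost: 2 lower of 13 membrane genes tested there and 1 lower of 14 scavenging and iron genes were called, and the 5 medians lay between -0.01 and 0.03. In intact males, Fth1 was lower than in intact females by a log2 difference of -0.26 (adjusted p = 0.0191) and the haemoglobin receptor Cd163 by -1.40 (adjusted p = 0.0241). Neither call was kept within the short class, 2 males against 2 females. Calls over all genes fell there from 599 of 14937 to 34 of 15130. In OVX females edgeR called 0 genes of each of these 5 lists. At an unadjusted p under 0.05 the counts there were 1 of 13 haem synthesis genes, 3 higher and 3 lower of 11 membrane genes, 3 of 7 factors and receptors, 2 higher and 1 lower of 12 late maturation genes and 1 of 13 scavenging and iron genes, and DESeq2 called 1, among the factors and receptors.

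Markers of other cells were read beside the members. Endothelial genes rose in males for 11 of 12 tested (median 0.51), among them Cdh5 (1.23, edgeR adjusted p = 0.00136), Abcb1a (0.31, adjusted p = 0.00483), Tek (0.49, adjusted p = 0.00752), Vwf (0.77, adjusted p = 0.00773) and Flt1 (0.54, adjusted p = 0.0352). Their sum was 199.6, 274, 233, 254 and 233 CPM in intact males 1, 2, 3, 5 and 6 and 355, 387, 340.0, 339 and 307 CPM in GDX males 1, 2, 4, 5 and 6, Abcb1a being most abundant and none at 0. All GDX males lay above all intact males in this sum, and GDX male 2, low in Hba-a2, was the highest. Against the 2 intact males of the short class, 3 of 12 rose (median 0.36). In OVX females the median was 0.40, and edgeR called 1 of 12 higher, Kdr (0.77, adjusted p = 0.0966), while 10 of 12 were higher at an unadjusted p under 0.05 and DESeq2 called 3. Against the 2 intact females of the short class the call was lost (median 0.62). Over all 6 rats of each group, the sum ran from 198 through 268 to 359 CPM in intact and from 307 through 381 to 419 CPM in OVX females. Cdh5 was lower in intact males than in intact females (-1.13, adjusted p = 0.00181).

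Genes of meninges and fibroblasts rose in males for 12 of 12 tested (median 1.51), among them Col3a1 (1.73, edgeR adjusted p = 0.00607), Igf2 (1.60, adjusted p = 0.00678), Col1a1 (1.81, adjusted p = 0.00848), Igfbp2 (0.85, adjusted p = 0.00968) and Pdgfra (0.23, adjusted p = 0.0586). Their sum was 346, 267, 275, 211 and 196 CPM in intact males and 319.6, 461, 595, 784 and 634 CPM in GDX males, Col1a1 being most abundant and none at 0. GDX male 1 was the lowest of its group in this sum and in both Hba-a2 rows, whereas GDX male 5 was highest in this sum and GDX male 4 in both rows. Over 22 rats the 12 meningeal genes had a median r of 0.64 with the member mean, and 0.46 with group means taken out. For the 12 endothelial genes these medians were 0.52 and 0.06. Against the 2 intact males of the short class, 6 of 12 rose (median 1.70). In OVX females 0 of 12 were called by edgeR, 0 had an unadjusted p under 0.05 and DESeq2 called 0, with sums from 431 through 528 to 681 CPM against 283 through 500.1 to 628 CPM in intact females. In intact males 9 of 12 were lower than in intact females (median -1.23), led by Slc13a3 (-0.29, adjusted p = 0.00842), Dpp4 (-1.79, adjusted p = 0.0101), Slc22a6 (-1.61, adjusted p = 0.0104) and Dcn (-1.16, adjusted p = 0.0211). Within the short class, 2 males against 2 females, these calls were lost (median -1.32). Calls over all genes fell there too, from 599 of 14937 to 34 of 15130. The part of the endothelial and meningeal markers in the change of the members was not tested.

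Markers of other blood cells were scarce. Of 12 granulocyte genes 2 were tested in males (median 0.68), and Lcn2 rose (1.05, edgeR adjusted p = 0.0912), a call lost in the short class. Against the 2 intact males of that class, 6 granulocyte genes were tested and 0 called, with a median of 1.81. In OVX females the median was 0.33 over 3 genes tested, and 0.98 over 5 in the short class, with 0 called in both. The 12 granulocyte genes summed to 8.71, 9.03, 9.21, 7.97 and 7.67 CPM in intact males and to 8.56, 10.8, 26.4, 15.5 and 18.6 CPM in GDX males, so that GDX males 4, 6 and 5 were highest here as in Hba-a2. In females the sum ran from 6.997 through 9.02 to 9.38 CPM in intact and from 8.73 through 12.2 to 14.4 CPM in OVX rats. Csf3r was most abundant, followed by S100a9, which averaged 0.478 and 2.69 CPM in intact and GDX males and 0.438 and 1.38 CPM in intact and OVX females; Ltf was at 0 in all rats. Of 11 platelet genes 1 was tested in males, Itga2b, at -0.04 (edgeR adjusted p = 0.940). The platelet sum ran from 1.89 to 3.33 CPM in intact and 3.06 to 4.32 CPM in GDX males and was led by Itga2b and then Pf4, with Gp1bb at 0. None of the 10 lymphocyte genes passed the filter. The part of these blood cell markers in the result was not tested.

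Neural markers were read in the same way. In males 3 of 11 motor neuron genes fell, Esrrg (-0.33, edgeR adjusted p = 0.0104), Slc18a3 (-0.43, adjusted p = 0.0542) and Nefh (-0.29, adjusted p = 0.0825), with a median of -0.16, and Prph, with Nefh the most abundant of this list, changed by -0.07 (adjusted p = 0.826). Against the 2 intact males of the short class these 3 calls were lost (median -0.04). Esrrg was higher in intact males than in intact females (0.26, adjusted p = 0.0161). That call was also lost within the short class, 2 males against 2 females, where 34 of all 15130 genes were called. Ermn (0.24, adjusted p = 0.0133) and Mbp (0.17, adjusted p = 0.0670) were the 2 of 10 oligodendrocyte genes called higher (median 0.05), and Gfap (0.38, adjusted p = 0.00472), S100b (0.26, adjusted p = 0.0208) and Aqp4 (0.18, adjusted p = 0.0209) the 3 of 8 astrocyte genes (median 0.14); in the short class 1 and 2 genes of these lists were called. Of 7 microglial genes 0 were called by edgeR, 1 had an unadjusted p under 0.05 and DESeq2 called 1 (median 0.14), Sall1 and Csf1r being most abundant. In OVX females edgeR called 0 genes of these 4 lists. At an unadjusted p under 0.05, 8 of 11 motor neuron genes were lower there (median -0.29), and 1 of 10 oligodendrocyte, 3 of 8 astrocyte and 3 of 7 microglial genes were higher. Of all 14910 genes, 1516 passed that level in either direction and 783 of them were higher. DESeq2 called 2, 0, 1 and 1 genes of these lists. Against the 2 intact females of the short class the motor neuron median was -0.10, and edgeR called 0 of 11.

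**Figure D4:**
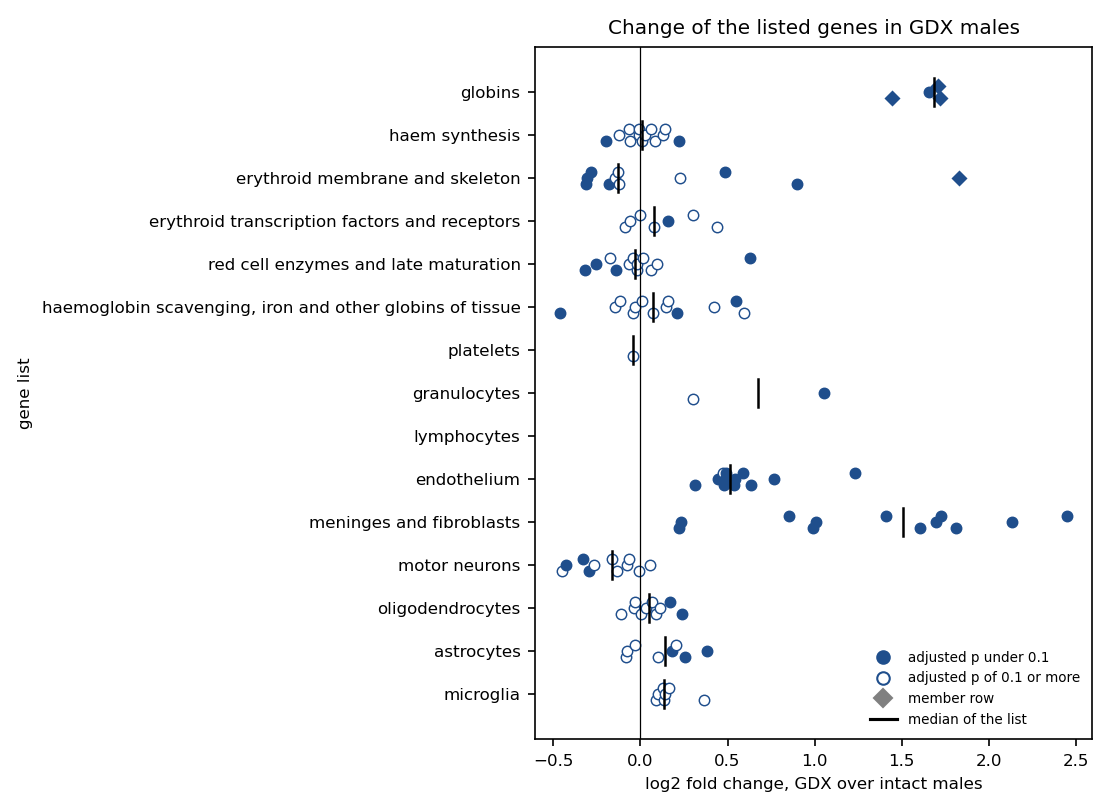
Log2 fold change of GDX over intact males for each gene of the lists that passed the filter, 1 list per line; diamonds are member rows, filled symbols have an adjusted p under 0.1 and short lines are list medians. The globin list lies at a median of 1.68 and the meningeal list at 1.51, while the medians of the other erythroid lists lie near 0. Genes with too few reads to pass the filter are left out of these medians.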

How the data were processed

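RNA of the ventral cervical spinal cord was sequenced in 22 rats, with a library for each rat. The authors deposited raw counts of reads per Ensembl gene, unnormalized. The labels name Illumina Truseq libraries, FastQC, TopHat2 2.0.13, Subread and the build Rnor_6.0, whereas the study's methods name a SMARTer Stranded Total RNA kit, Hisat2 and featureCounts of Subread, so the aligner remains unsettled. Strand and multi-mapping settings were not stated. Library totals ran from 12371756 to 17571887 counts, and the floor of 3 counts lay between 0.167 and 0.240 CPM; floors and counting error cover sampling of reads only, since no molecular tags were used.

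Groups came from the sample labels, and 0 columns were left unmatched. In R 4.3.3, edgeR 4.0.16 was run on all genes for each comparison (filterByExpr with a minimum count of 10, TMM, quasi-likelihood test, Benjamini-Hochberg adjustment over all genes tested, level 0.1). Means, shares and lists use CPM of TMM-scaled totals. Values are from edgeR unless another tool is named. Its test gives no SE, so the SE was taken as the absolute log2 fold change over the square root of the F statistic. The 95% intervals are normal intervals from that fold change and SE. They do not allow for the small groups and may be too narrow. Co-variation used log2 CPM with a prior count of 2 and 2-sided permutation tests with 100000 permutations in numpy 2.4.6 and scipy 1.17.1; shares used exact permutation tests. Figures were drawn with matplotlib 3.10.9. The procedure was tested on simulated data.

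Every row of the members is named. From the gene lists, genes are named that had an adjusted p under 0.1 in any comparison, at most 4 per list and comparison by smallest p, and the 2 of each list with the highest mean CPM; the 10 genes with the highest and the 5 with the lowest correlation with the members are named too. Other genes were named after their values were seen, to give a short count in full or to give a level near 0. The lists were globins, haem synthesis, erythroid membrane, erythroid factors and receptors, red cell enzymes, scavenging and iron, platelets, granulocytes, lymphocytes, endothelium, meninges and fibroblasts, motor neurons, oligodendrocytes, astrocytes and microglia. Members and lists were chosen with earlier results of these data known.

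Alternatives were DESeq2 1.42.0, RLE size factors, no filter or a filter at 1 CPM, unadjusted p, the short fragment class alone, fragment class or RNA integrity as a term, all rats in 1 fit, rat number as a replicate block, each rat left out, and for co-variation centring on group means, unscaled totals and a prior count of 0.5. For rows below the filter, RLE, DESeq2 and fragment class were tried without the filter; these were chosen after seeing the data. No pairing of rats between groups was described, and a correlation check of equal rat numbers was made.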

Additional observations from a re-analysis of the deposited data

Results flagged for a closer look

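In 104 sets of values, 26 quantities in each of 4 groups, 4 held a single rat far from the others of its group; chance alone gives about 1 in 20 such sets. OVX female 6 had 20.4 percent of Hbb among the reads of Hbb and both Hba-a2 rows, the next OVX female 14.1 percent. Intact female 2, the rat with fewest globin reads, had 66.7 percent of its Hba-a2 reads in the first row, the next intact female 57.2 percent. The microglial markers summed to 297 CPM in intact male 5 and to 276 CPM in the next intact male. The oligodendrocyte markers summed to 23554 CPM in OVX female 4, the lowest of its group, and to 25754 CPM in the next. Of 5 member rows tested for a difference between the male and the female response, 0 were called by edgeR, 0 had an unadjusted p under 0.05 and DESeq2 called 0.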

How the results depend on the processing

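The direction of the male change held in every alternative tried for the member rows: 60 values kept their side of the threshold, 1 (Alas2 in DESeq2) passed it and 25 no longer did. In females 104 values kept their side, 8 passed it and none turned. Of 4 male member rows called, edgeR called 0 in the short fragment class alone, 0 with fragment class as a term and 0 with rat number as a replicate block, where its calls over all genes, 1995 in the main fit, were 440, 796 and 1274. The settings with fragment class rest on the same 2 intact males of the short class for the fold change. Leaving out each rat gave from 2 to 4 member rows and from 1202 to 2446 of all genes. In that replicate block the log2 changes in males were 1.09 and 1.03 for Hba-a2, 0.88 for Hbb and 1.06 for Slc4a1 (adjusted p from 0.114 to 0.377), although equal rat numbers were not correlated above 0.1 in any of 4 male pairs. Number 3 occurred only among intact males and number 4 only among GDX males. That fit thus compared the 4 pairs alone, and intact male 3 and GDX male 4 did not inform it. Leaving out GDX male 4 by itself gave 1.29, 1.23, 0.93 and 1.25 for the same rows. Over all alternatives with an adjusted p, that of the first Hba-a2 row in males ran from 0.00553 to 0.143, of the second from 0.00429 to 0.187, of Hbb from 0.0185 to 0.308 and of Slc4a1 from 0.0367 to 0.377. In females the count of called rows, 0 in edgeR, was 1 in DESeq2, 5 at an unadjusted p under 0.1 and from 0 to 2 with each rat left out, beside 5 of all genes in the main fit and 174, 2518 and from 0 to 113 in these; adjusted p of Hbb ran from 0.0361 to 0.780 and of the first Hba-a2 row from 0.0937 to 0.779. Between GDX males and OVX females, 1 row passed an unadjusted p under 0.1. Without 1 rat, the log2 difference of GDX males from OVX females ran from -0.23 to 0.47 in the second Hba-a2 row, -0.53 to 0.19 in Hbb and -0.55 to 0.23 in Alas2, that of intact males from intact females from -0.62 to 0.14 in Slc4a1, and the interaction of Hbb from -0.12 to 0.70. The interaction of Ahsp, fitted without a filter on counts mostly under the floor of 3 reads, has no direction that can be read: it was 0.07 in edgeR and -0.0492 in DESeq2. The causes were not tested. Fewer libraries are compared in the short class alone: 2 intact males and 2 intact females. All 40 alternative values of Pearson r kept their sign, and their adjusted p kept its side of 0.05. Spearman rho of Alas2 and Ahsp lay near 0 and changed sign. It was 0.00516 in the main setting, -0.0541 in the short class and -0.0430 with unscaled totals. Fragment class as a term could not be fitted for GDX males against OVX females, all of the short class. At this depth Alas2 and Ahsp had few reads in intact rats.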
